A study of Homo sapiens with 2 samples.

Results

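Hi-C measures how often stretches of DNA meet in the nucleus, and in this series it was applied to HepG2 cells, a long-established line from a human liver tumour. Cells of the PA+OA group were kept for 48 h in medium with 120 µM palmitic acid, a saturated fatty acid, and 240 µM oleic acid, a monounsaturated one, while those of the mock group were given DMSO at 1 part in 1000. The labels give 1% fatty acid-free BSA for the fatty acid medium and leave unclear whether the mock medium held it too. Each group had 1 library and each library 1 deposited list of domains, so all differences below are between 2 lists, with no replicate and no test of the treatment.

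The entries described here are the shortest of those lists. They are the entries whose start and end, rounded to whole multiples of 40 kb, lie at most 80 kb apart, that is 0, 1 or 2 bins of the 40 kb grid on which both lists are written. There were 402 of them among 5203 entries, 184 of 2524 in the PA+OA list and 218 of 2679 in the mock list. Zero-length entries, whose start and end are the same position, made up 108 of the PA+OA and 136 of the mock entries. The other entries were 40 kb long in 43 cases in the PA+OA list and 47 in the mock list, and 80 kb long in 33 and 35 cases. The length chose these entries, so their length is not a result. Just outside the limit, 36 PA+OA and 32 mock entries were 120 kb long.

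A topologically associating domain is a stretch of chromosome whose sequences meet each other more often than they meet the sequences beside it. Many of its edges are places where cohesin, the ring complex that extrudes loops of DNA, is stopped by the zinc finger protein CTCF, and active gene starts are often found at edges too. Domain callers read edges from a binned contact matrix, so an entry of 1 or 2 bins lies near the limit of what the bins can resolve. The sources used here do not give the caller, its minimal domain size or the meaning of a zero-length row. Sequencing depth is unknown too, as only positions are listed.

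No genome sequence was used here, so the sequence of the entries themselves was not read. What can be shown is sequence annotated inside them by RefSeq on GRCh38.p14, the same build as hg38. The promoter windows below run from 250 bases before to 50 bases after a gene's start. EIF4A2, a translation initiation helicase, and PSMC3, a regulatory subunit of the proteasome, start in 80 kb PA+OA entries that are among the 5 with the most coding genes, at chr3:186720001-186800000 and chr11:47400001-47480000. LIPA, the gene of lysosomal acid lipase, and WAC, which encodes an adaptor of histone H2B ubiquitination, are each the only coding gene of an entry found identically in both lists, at chr10:89240001-89280000 and chr10:28520001-28600000, and were chosen after their values were seen because their windows match a core of the CTCF motif. Capitals mark matches to that core, which reads CC, any 3 bases, AGG, any base and GGC and was searched on both strands, each printed in the direction of its gene.
EIF4A2, chr3:186783327-186783626, plus strand: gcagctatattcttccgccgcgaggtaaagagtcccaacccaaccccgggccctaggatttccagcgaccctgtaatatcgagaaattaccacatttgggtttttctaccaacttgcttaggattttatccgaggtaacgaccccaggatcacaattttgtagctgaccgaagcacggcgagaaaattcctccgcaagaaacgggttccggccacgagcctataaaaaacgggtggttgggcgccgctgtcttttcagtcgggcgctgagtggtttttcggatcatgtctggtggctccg
PSMC3, chr11:47426390-47426689, minus strand: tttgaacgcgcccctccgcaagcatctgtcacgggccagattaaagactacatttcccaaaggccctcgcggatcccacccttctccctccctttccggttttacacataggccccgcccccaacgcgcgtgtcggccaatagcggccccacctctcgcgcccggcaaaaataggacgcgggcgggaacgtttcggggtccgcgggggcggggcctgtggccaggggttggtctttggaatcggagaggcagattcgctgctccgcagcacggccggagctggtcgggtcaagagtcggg
LIPA, chr10:89251726-89252025, minus strand: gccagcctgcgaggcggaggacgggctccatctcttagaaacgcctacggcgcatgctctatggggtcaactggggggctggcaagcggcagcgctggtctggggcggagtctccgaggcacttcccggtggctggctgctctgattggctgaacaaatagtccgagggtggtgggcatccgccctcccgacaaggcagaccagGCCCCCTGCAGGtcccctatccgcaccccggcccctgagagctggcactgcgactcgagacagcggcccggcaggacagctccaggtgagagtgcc
WAC, chr10:28532529-28532828, plus strand: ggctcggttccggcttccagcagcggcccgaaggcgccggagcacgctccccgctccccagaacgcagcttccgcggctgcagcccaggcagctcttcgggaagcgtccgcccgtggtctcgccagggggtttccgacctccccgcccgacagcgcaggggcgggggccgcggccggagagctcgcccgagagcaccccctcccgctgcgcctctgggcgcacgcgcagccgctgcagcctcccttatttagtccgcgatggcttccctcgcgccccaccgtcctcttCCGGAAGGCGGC
The LIPA window holds 1 match on the strand opposite to the gene and the WAC window 1 match on the strand of the gene, at its very end, while the windows of EIF4A2 and PSMC3 hold none. Of the 97 promoter windows of 70 protein-coding genes whose start lies in a 40 or 80 kb entry of either list, 9 (9.28%) hold a match, against 1220 of 22156 coding windows (5.51%) and 1621 of all 34992 windows (4.63%). Several of those windows belong to the same gene and overlap, so that they are not independent, and a match in these letters does not show binding.

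Of the microRNA genes that lie in 40 or 80 kb entries, 3 have a mature sequence in the RefSeq table. MicroRNAs bind messenger RNAs mainly through their seed, bases 2 to 8, which is printed in capitals.
hsa-miR-544b, chr3:124732486-124732507, plus strand: aCCUGAGGuugugcauuucuaa
hsa-miR-1248, chr3:186786675-186786701, plus strand: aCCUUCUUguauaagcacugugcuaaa
hsa-miR-634, chr17:66787132-66787153, plus strand: aACCAGCAccccaacuuuggac
None of the 3 share a seed. The gene of miR-544b lies in the 40 kb entry chr3:124720001-124760000 of both lists, that of miR-1248 in the 80 kb PA+OA entry of EIF4A2, and that of miR-634 in the 80 kb mock entry chr17:66720001-66800000, which lies in PRKCA, the gene of protein kinase C alpha. MIR4487 lies in the PSMC3 entries of both lists.

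Short entries were slightly less numerous in the PA+OA list. They made up 7.29% of PA+OA entries (Wilson 95% interval 6.34 to 8.37%) and 8.14% of mock entries (7.16 to 9.23%), and the intervals overlap. All intervals here cover counting error only. The 40 and 80 kb entries together covered 4360 kb in the PA+OA list, or 0.145% of its length, and 4680 kb or 0.155% in the mock list. The PA+OA list had 34 short entries fewer than the mock list, and 28 fewer of zero length.

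The difference in number was not the same along the genome. Of 23 chromosomes, 13 had fewer short entries in the PA+OA list than in the mock list, 4 had more and 6 had equal numbers. Entries of any length were fewer in the PA+OA list too, 2524 against 2679, and fewer on most chromosomes. The 13 are therefore not particular to short entries. Chromosome 19 had none among its 24 PA+OA and 19 mock entries, and chromosomes 13 and 21 had none among 5 and 12 PA+OA entries. Chromosome 11 held 17 PA+OA and 23 mock short entries, chromosome 16 held 10 and 16, and chromosome 14 held 2 and 8. Chromosome 3 went the other way with 12 in the PA+OA list and 5 in the mock list, and chromosome 2 held 19 and 14. The number of listed domains of any length differed too on some of these chromosomes. Chromosome 3 had 231 PA+OA and 168 mock entries of any length and chromosome 14 had 47 and 67, but chromosome 16 had 93 and 95 and chromosome 11 had 193 and 196. The PA+OA list covered 104.08 Mb of chromosome 14 and the mock list 106.52 Mb. With each chromosome left out in turn, the difference lay between -41 and -28.

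**Figure D1:**
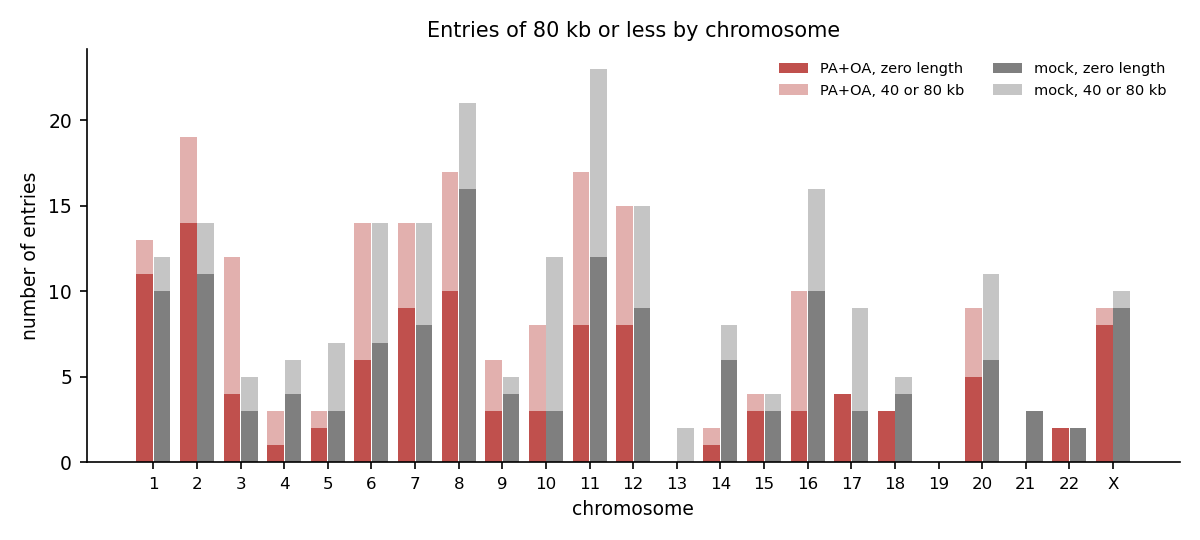
Number of entries of 80 kb or less (vertical axis) on each chromosome (horizontal axis), PA+OA in red left of mock in grey, with zero-length entries in full colour and those of 40 or 80 kb in pale colour above them. Chromosome 19 has none, chromosome 3 stands out with 12 PA+OA against 5 mock entries, and chromosomes 11, 14 and 16 each have 6 fewer in the PA+OA list.

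Every zero-length entry sat on an edge of a longer domain of its own list. The 108 PA+OA rows were 104 distinct positions, all of them edges of PA+OA domains above zero length, and the 136 mock rows were 130 positions, all of them edges of mock domains. The domains of a list follow each other without gaps, so a zero-length row has to fall on an edge, and this does not show what the rows mean. Of these positions, 4 PA+OA and 6 mock positions were listed as zero-length 2 times. Few of them mark the end of a chromosome, as 3 PA+OA and 4 mock positions were the last of their chromosome.

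Most short entries stood alone. They made up 7.29% of the PA+OA and 8.14% of the mock list, so that few pairs would form in a random order too. How many was not worked out, and the number of pairs is not read as a trait of these entries. In the PA+OA list 164 stood alone and 20 formed 10 pairs of adjacent short entries, and in the mock list 188 stood alone and 30 formed 15 pairs, with no longer run in either. The pairs were 4 zero-length positions listed again and 6 zero-length entries at the edge of a 40 or 80 kb entry in the PA+OA list, against 6 and 8 in the mock list. The remaining mock pair was a 40 kb entry next to an 80 kb one, at 16:21840001-21960000, where NPIPB4 lies. By order on the genome, the first 3 pairs of the PA+OA list were a zero-length position listed again at 1:144440000 in NBPF15, an 80 kb entry with a zero-length one at its end at 2:97520001-97600000 in ANKRD36B, and the repeated position 2:241800000. Those of the mock list were the repeated position 2:241800000, an 80 kb entry with a zero-length one at its start at 7:72720001-72800000 in TYW1B, and one with a zero-length entry at its end at 8:7960001-8040000 among FAM90A genes. In each list 3 of the repeated positions were the same as in the other list, at 2:241800000 in GAL3ST2, at 8:44960000 and at 11:134720000. None of the pairs that join a zero-length with a 40 or 80 kb entry had a member identical in the other list.

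In each list 63 short entries had the same start and end in the other. That is 34.2% of the PA+OA short entries (27.8 to 41.4%) and 28.9% of the mock ones (23.3 to 35.2%), against 38.9% of all PA+OA and 36.6% of all mock entries. By length, 38 of 108 zero-length PA+OA entries (35.2%), 18 of 43 entries of 40 kb (41.9%) and 7 of 33 entries of 80 kb (21.2%) were identical in the mock list. In the mock list the shares were 27.9%, 38.3% and 20% in the same order of lengths. Entries of 120 kb were identical in 16.7% of PA+OA and 18.8% of mock cases, and those of 160 to 600 kb in 48.8% and 46.3%. The entries of a single bin were thus found again at about the rate of all entries, whereas those of 80 and 120 kb had the lowest shares among entries up to 3 Mb, with wide intervals. Allowing 1 bin at each edge, 46.7% of PA+OA and 39.0% of mock short entries were found again, against 49.1% of all PA+OA and 46.2% of all mock entries. For the 80 kb entries the interval ran from 10.7 to 37.8% in the PA+OA list and from 10.0 to 35.9% in the mock list.

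**Figure D2:**
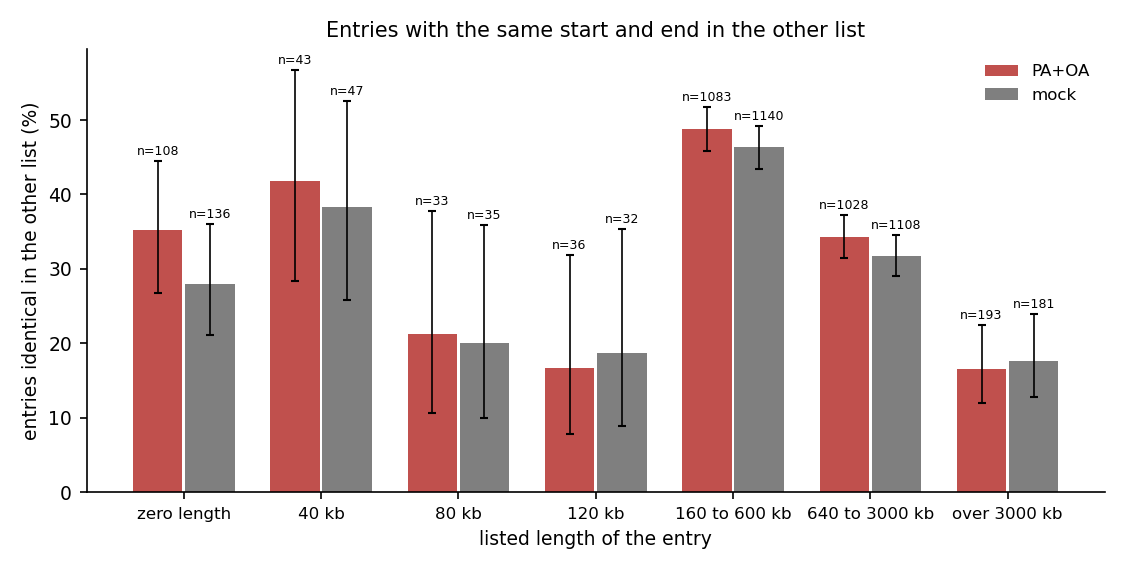
Share of entries with the same start and end in the other list (vertical axis, percent) by listed length (horizontal axis), PA+OA in red left of mock in grey, with Wilson 95% intervals as bars and the number of entries above them. Entries of 40 kb stand at 41.9% in PA+OA and 38.3% in mock, those of 80 and 120 kb at 16.7 to 21.2%, and those of 160 to 600 kb at 48.8% and 46.3%.

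Recurrence of the 40 and 80 kb entries went with genes. Of those that overlap a protein-coding gene, 24 of 57 PA+OA entries (42.1%, interval 30.2 to 55.0%) and 24 of 64 mock entries (37.5%, 26.7 to 49.7%) were identical in the other list. Of those that overlap none, 1 of 19 PA+OA entries (5.26%, 0.935 to 24.6%) and 1 of 18 mock entries (5.56%, 0.988 to 25.8%) were. The pattern is not particular to short entries, since above 80 kb the shares were 41.8% with and 12.0% without a coding gene in the PA+OA list, and 39.6% and 11.7% in the mock list. Zero-length entries did not show it by overlap, which for them is that of a single position and so an unlike measure. Those inside a coding gene were identical in 11 of 35 PA+OA (18.6 to 48.0%) and 11 of 41 mock cases (15.7 to 41.9%). Those outside were in 27 of 73 PA+OA (26.8 to 48.5%) and 27 of 95 mock cases (20.3 to 38.2%). By a coding gene within 500 kb they went the same way as longer entries, with overlapping intervals. The shares were 39.1% with and 19.0% without one in the PA+OA list, and 31.5% and 14.3% in the mock list.

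The 25 identical entries of 40 or 80 kb lay on 13 chromosomes, and 24 of them overlap a coding gene. They are described as a set chosen by that identity, and the genes named from it were picked after their values were seen. No list or test singled out a kind of gene among them. The entry of LIPA, whose enzyme breaks down cholesteryl esters and triglycerides in lysosomes, lay between domains of 240 and 840 kb in both lists. That of LDAH, a hydrolase found on lipid droplets, lay at 2:20680001-20720000 between domains of 320 and 2040 kb in the PA+OA list and of 320 and 1960 kb in the mock list. ACSM6, of a family of medium-chain acyl-CoA synthetases, shares the 80 kb entry 10:95160001-95240000 with PDLIM1, between domains of 560 and 440 kb in both lists. COX4I1, a subunit of cytochrome c oxidase, lies in 16:85800001-85880000, preceded by a domain of 3520 kb in the PA+OA list and of 1720 kb in the mock list. NNMT, which methylates nicotinamide and is abundant in liver, lies in 11:114280001-114320000.

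PSMA1 encodes a subunit of the proteasome core (11:14520001-14600000), NFYB a subunit of the CCAAT-binding factor NF-Y (12:104120001-104200000), ATP6V1B2 a subunit of the proton pump that acidifies lysosomes (8:20200001-20240000), and ARPC3, which shares 12:110440001-110480000 with FAM216A and GPN3, a subunit of the actin-nucleating Arp2/3 complex. UMPS, which carries out the last steps of UMP synthesis, lies in the entry of miR-544b. SLC6A6, the taurine transporter, shares 3:14480001-14520000 with GRIP2. WNT5B, a Wnt ligand, lies in 12:1600001-1640000. TRIM10, TRIM15 and TRIM26, of a family of RING finger proteins, share 6:30160001-30200000. The cancer-testis genes CT47B1 and CT47A12 lie in the only identical entry of 40 or 80 kb on the X chromosome, at X:120800001-120880000. The exception without a coding gene, at 5:115640001-115680000, lies 14.0 kb from TMED7, which encodes a cargo receptor of the early secretory pathway.

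The domains beside identical short entries were often of equal length as well. Of the 50 neighbours of these 25 entries, 28 (56%) were equal in both lists, against 60.7% of the neighbours of identical entries above 80 kb. Both neighbouring domains had the same length in both lists for 8 of the 25 entries, 1 neighbour did for 12 and none for 5. The CT47 entry is an example of the last kind, with a domain of 2120 kb after it in the PA+OA list and of 12120 kb in the mock list.

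Of the identical zero-length rows, 35 were distinct positions, on 14 chromosomes. Of the 35, 10 lie inside a coding gene, among them 2:43880000 in ABCG8, part of the sterol exporter of the liver and gut, 10:97400000 in RRP12, of ribosome maturation, and 20:57360000 in RAE1, of messenger RNA export. Outside genes the median distance to the nearest coding gene was 18.6 kb, up to 3888.2 kb. Distances below 40 kb are finer than the grid and refer to the edge as listed. Of the 33 positions with a domain on both sides in both lists, both neighbours were of equal length in 9, 1 neighbour was in 18 and none in 6.

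Of the 40 and 80 kb entries that were not identical, most kept an edge in the same bin of the other list, with 2 edges each to match. This is not particular to them. Counted as edges, 56.6% of all PA+OA and 54.0% of all mock edges of 40 and 80 kb entries were edges of the other list. Of all inner edges 65.2% and 62.1% were. With wider matching the order turned. Within 1 bin the edges of 40 and 80 kb entries had 78.9% in PA+OA and 73.0% in mock, against 75.01% and 71.3% of all inner edges. Within 2 bins they had 88.8% and 83.4%, against 77.8% and 74.0%. Both edges of such an entry lie 1 or 2 bins apart, so that 1 edge of the other list can then serve both. Of 76 PA+OA entries of 40 or 80 kb, 25 were identical in the mock list, 36 kept an edge in the same bin, 6 had an edge 1 bin away and 9 had no mock edge within 1 bin. Of 82 mock entries, 25 were identical in the PA+OA list, 39 kept an edge, 6 had one 1 bin away and 12 had none. The 9 PA+OA entries without such an edge fell inside mock domains of 440 to 13160 kb (median 1520 kb), and the 12 mock entries inside PA+OA domains of 320 to 6720 kb (median 2040 kb).

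Zero-length entries were followed in the same way, each with a single position to match where a 40 or 80 kb entry has 2 edges. Of 108 PA+OA entries, 38 were zero-length in the mock list too, 3 stood at an edge of a 40 or 80 kb mock entry, 21 at an edge of longer mock domains and 11 were 1 bin away from an edge, while 35 (32.4%, interval 24.3 to 41.7%) had no mock edge within 1 bin. Of 136 mock entries the numbers were 38, 7, 20 and 15, and 56 (41.2%, 33.3 to 49.6%) had no PA+OA edge within 1 bin. The domains around those places measured 160 to 9480 kb in the mock list (median 760 kb, around the PA+OA entries) and 160 to 26360 kb in the PA+OA list (median 1000 kb, around the mock entries).

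**Figure D3:**
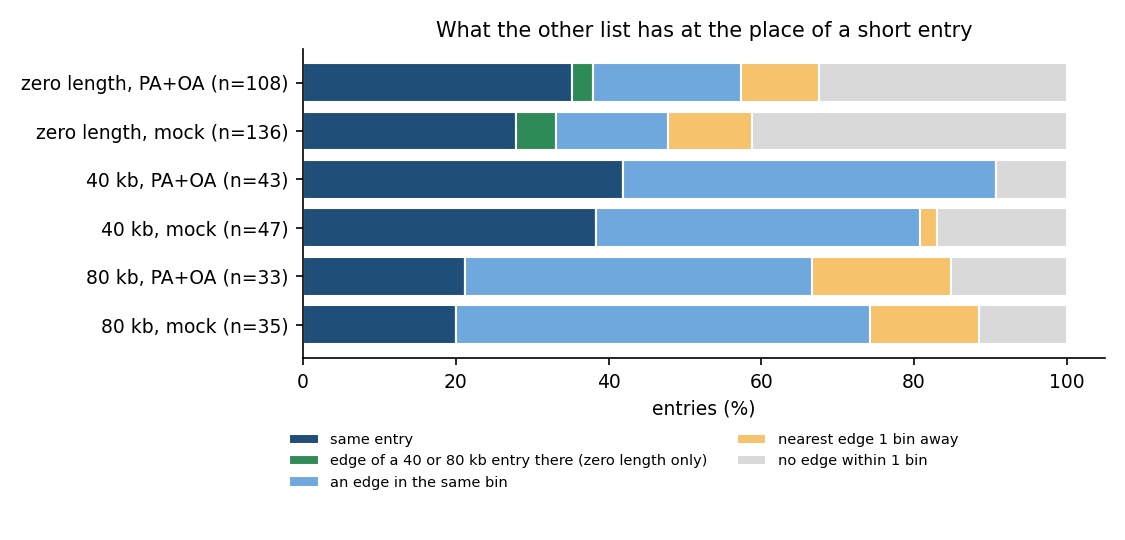
Share of short entries (horizontal axis, percent) by what the other list has at the same place, in rows of length and list, with each PA+OA row above its mock row. The same entry is found for 20 to 41.9%, and the grey part with no edge within 1 bin is widest for zero-length entries, at 32.4% in PA+OA and 41.2% in mock.

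Counted as positions, 59 of 104 zero-length PA+OA positions (56.7%, interval 47.1 to 65.8%) were edges of the mock list in the same bin, and 62 of 130 zero-length mock positions (47.7%, 39.3 to 56.2%) were edges of the PA+OA list. The edges of 40 and 80 kb entries had 56.6% and 54.0%. Inner edges that touch no short entry had 66.1% in the PA+OA list (64.0 to 68.0%) and 63.3% in the mock list (61.3 to 65.3%), and all inner edges had 65.2% and 62.1%. Within 1 bin, 67.3% of zero-length PA+OA and 59.2% of zero-length mock positions had an edge of the other list, against 75.01% and 71.3% of all inner edges. The edges of 40 and 80 kb entries had 78.9% and 73.0% within 1 bin. With the same bin required, in the mock list the interval of zero-length positions lay wholly below that of the edges that touch no short entry, and in the PA+OA list the intervals overlap. Without entries lacking a coding gene within 500 kb, a setting added after seeing the data, zero-length positions had 65.5% in the PA+OA and 53.3% in the mock list. Other edges were not recomputed in that setting.

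A few places were zero-length in the list of 1 library and a domain of 1 or 2 bins in the other. Of the 10 such places, 3 were zero-length in the PA+OA list and 40 kb long in the mock list, and 7 were zero-length in the mock list and 40 or 80 kb long in the PA+OA list. The following were named after their values were seen. LRRFIP1 (2:237600001-237640000), and RNF14, an E3 ubiquitin ligase (5:141960001-142000000), lie in 40 kb entries of the mock list whose end is a zero-length PA+OA position. EIF4G2, a translation initiation factor (11:10800001-10840000), POLR2B, a core subunit of RNA polymerase II, with its neighbour NOA1 (4:56960001-57000000), and NUP153, a nuclear pore protein, with FAM8A1 (6:17600001-17640000), lie in 40 kb entries of the PA+OA list with a zero-length mock position at an edge.

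In another 4 places both lists had a 40 or 80 kb entry with the same start and another end, or the same end and another start. At a further place, found after the values were seen, the PA+OA entry 16:37000001-37080000 ended where the mock entry 16:37080001-37160000 began. The most gene-rich was the PSMC3 entry, which ran from 47400001 to 47480000 on chromosome 11 in the PA+OA list and to 47440000 in the mock list. The shorter mock entry leaves out CELF1, an RNA-binding protein. The proteasome gene PSMA3 lay in a PA+OA entry of 40 kb that ended at 58280000 on chromosome 14, and in a mock entry of 80 kb with the same end that also took in ACTR10.

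Genes were common in the 40 and 80 kb entries. Of 43 PA+OA entries of 40 kb, 34 (79.1%, interval 64.8 to 88.6%) overlap a protein-coding gene, and of 47 mock entries 38 (80.9%, 67.5 to 89.6%) do, against 53.4% of all 40 kb windows of the covered genome. Of the 80 kb entries, 23 of 33 PA+OA (69.7%, 52.7 to 82.6%) and 26 of 35 mock entries (74.3%, 57.9 to 85.8%) do, against 59.3% of 80 kb windows. Counting a gene only where its middle lies in the entry gave 48.8% of PA+OA and 48.9% of mock 40 kb entries, against 21% of windows, and 60.6% and 48.6% of 80 kb entries, against 33.8% of windows. Entries of all lengths overlap a coding gene in 88.4% of PA+OA and 88.1% of mock cases, but they are longer and so overlap more by size alone. A short entry of 40 or 80 kb overlapped 1.24 coding genes on average in the PA+OA list and 1.33 in the mock list.

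Gene starts were about as dense in these entries as at other domain edges. Chromosome 8 is not used here for gene starts and promoters. Outside it, a coding gene start lay in 15 of 38 PA+OA entries of 40 kb (39.5%, interval 25.6 to 55.3%). In the mock list it lay in 21 of 46 (45.7%, 32.2 to 59.8%), against 18.8% of windows. Of the 80 kb entries, 14 of 31 in each list held a start (45.2%, 29.2 to 62.2%). The share of 80 kb windows, 30.6%, lies within that interval. Around the middles of the 40 and 80 kb entries there were 0.536 starts per 40 kb in the PA+OA list (69 entries) and 0.571 in the mock list (77 entries). At inner edges that touch no short entry there were 0.598 and 0.587, and the mean over all windows was 0.308. The zero-length positions had 0.716 in the PA+OA list (95 positions) and 0.478 in the mock list (115 positions).

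**Figure D4:**
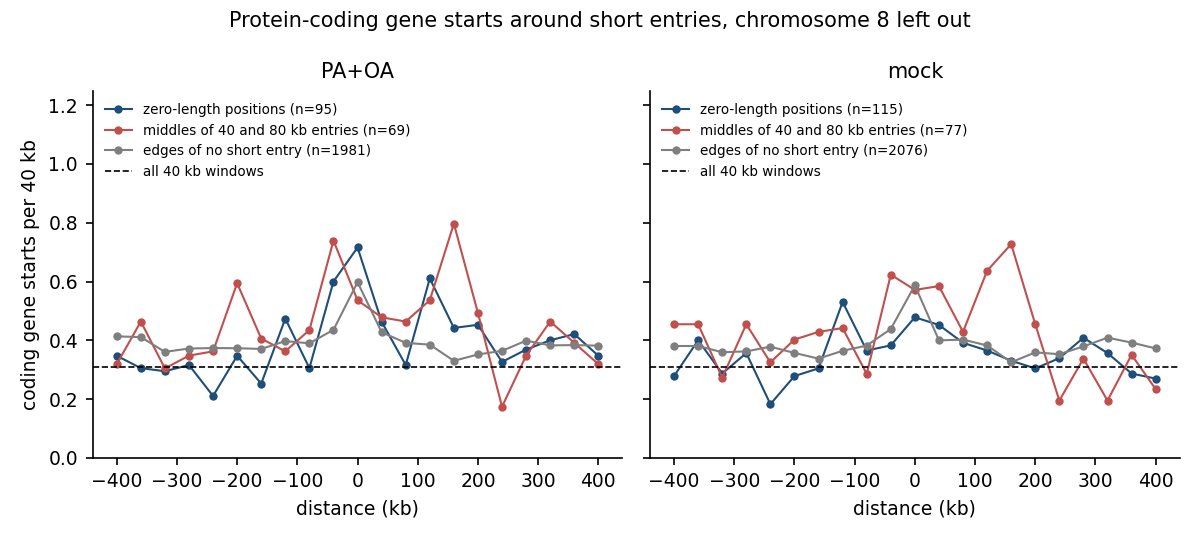
Protein-coding gene starts per 40 kb (vertical axis) by distance (horizontal axis, kb) from zero-length positions in blue, middles of 40 and 80 kb entries in red and edges that touch no short entry in grey, for PA+OA at left and mock at right. At the centre the 3 curves stand at 0.716, 0.536 and 0.598 in PA+OA and at 0.478, 0.571 and 0.587 in mock, all above the dashed mean of 0.308, and the curves from few places are uneven away from the centre.

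Zero-length positions lay inside genes less often than other edges. In the PA+OA list 33 of 104 (31.7%, interval 23.6 to 41.2%) and in the mock list 40 of 130 (30.8%, 23.5 to 39.2%) lay inside a protein-coding gene. Inner edges that touch no short entry did in 47.6% of PA+OA (45.5 to 49.7%) and 47.2% of mock cases (45.2 to 49.3%), and all inner edges in 47% and 46.7%. The edges of the 40 and 80 kb entries did in 47.4% of PA+OA (39.6 to 55.3%) and 51.5% of mock cases (43.9 to 59.1%). Their interval lay wholly above that of zero-length positions in the mock list and overlapped it in the PA+OA list.

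A part of the zero-length entries lay far from any gene. In the PA+OA list 20 of 104 zero-length positions (19.2%) and in the mock list 25 of 130 (19.2%) had no protein-coding gene within 500 kb. Inner edges that touch no short entry had none in 6.15% of PA+OA and 6.29% of mock cases, and edges of 40 and 80 kb entries in 9.21% and 9.82%. Over entries of all lengths the shares were 4.32% and 4.22%, where longer entries reach further. Counting all short entries, 27 PA+OA entries on 10 chromosomes and 36 mock entries on 14 were this far from genes, at up to 4248.2 and 3888.2 kb.

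**Figure D5:**
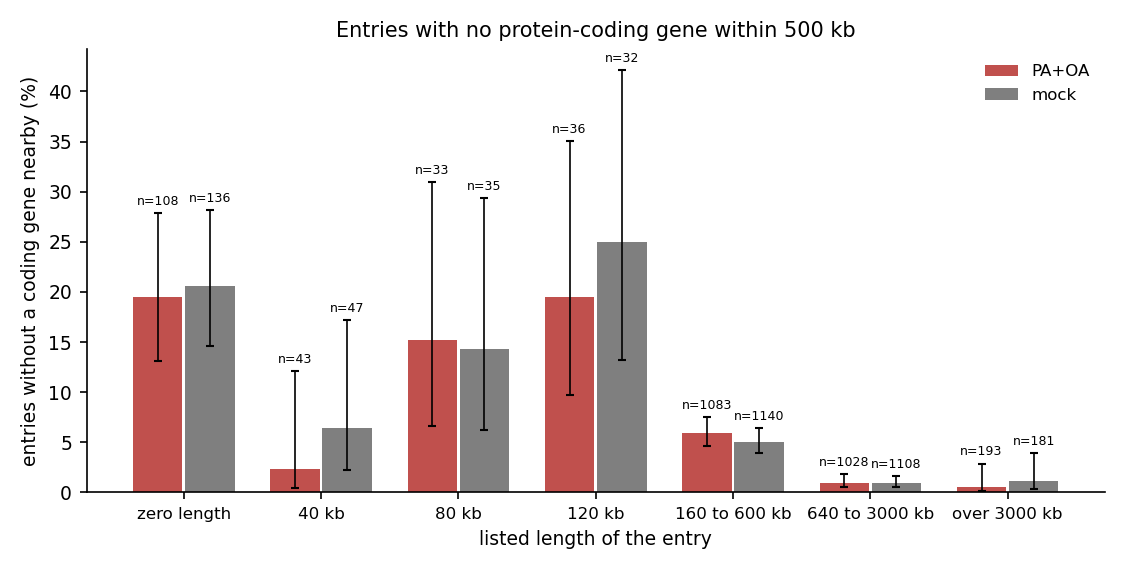
Share of entries with no protein-coding gene within 500 kb (vertical axis, percent) by listed length (horizontal axis), PA+OA in red left of mock in grey, with Wilson 95% intervals as bars and the number of entries above them. The zero-length entries stand at 19.4% in PA+OA and 20.6% in mock, the 40 kb entries at 2.33% and 6.38%, and longer entries reach more genes because they span more sequence.

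Several of the entries far from genes lay near each other. They were chosen by that distance and can lie only in stretches without genes, so that nearness follows in part from the choice. No comparison with longer entries was made. Others stood alone, with 1 on chromosome 10 in each list. In the mock list chromosomes 6, 12, 17, 18 and 22 had 1 each. On chromosome 11, 4 PA+OA and 7 mock entries lay between 51720000 and 54080000. On chromosome 8, 4 PA+OA and 5 mock entries lay between 44240000 and 45520000. On chromosome 7, 4 PA+OA and 3 mock entries lay between 61680000 and 62960000. These are rows and not separate places. The positions 11:52760000 and 11:53400000 in the mock list and 8:44960000 in both lists count 2 times each. The zero-length PA+OA entries at 11:53000000 and 7:62400000 stand on an edge of an 80 kb entry that is counted too. No annotation of centromeres or repeats was used here, so how many of the entries far from genes lie in such sequence was not counted. Of those of zero length, 4 of 21 PA+OA (19.0%, interval 7.67 to 40%) and 4 of 28 mock entries (14.3%, 5.70 to 31.5%) were identical in the other list. In each list the repeated position 8:44960000 makes up 2 of these 4. Of the zero-length entries nearer to a gene, 34 of 87 PA+OA (39.1%, 29.5 to 49.6%) and 34 of 108 mock entries (31.5%, 23.5 to 40.7%) were, so that the intervals overlap. Among these 34 the repeated positions 2:241800000 and 11:134720000 count 2 times each. The intervals treat repeated rows as separate entries. Over entries of all lengths with no coding gene within 500 kb the share was 9.17% in the PA+OA and 8.85% in the mock list. Of the 40 and 80 kb entries far from genes, 0 of 6 PA+OA (interval 0 to 39.0%) and 0 of 8 mock entries (0 to 32.4%) were identical.

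The 5 most gene-rich entries of each list are given next. Among the 5 of the PA+OA list, the PSMC3 entry also overlaps SLC39A13, a zinc transporter, RAPSN, which anchors acetylcholine receptors, and CELF1. The entry at 12:55720001-55800000 holds RDH5, a retinol dehydrogenase, CD63, a tetraspanin of late endosomes, GDF11, a TGF-beta family ligand, and SARNP. The entry at 8:38200001-38280000 holds BAG4, DDHD2, a triglyceride and phospholipid hydrolase, PLPP5 and NSD3, a histone methyltransferase. It had no edge in the same bin in the mock list, only an edge 1 bin away. The entry of EIF4A2 also overlaps KNG1, the kininogen gene of the liver, and RFC4, a clamp loader subunit of DNA replication, and the mock list has a domain of 1160 kb around it with 1 edge in the same bin. The entry at 4:127720001-127800000 overlaps INTU, SLC25A31, a mitochondrial ADP/ATP carrier of the testis, and HSPA4L, a heat shock protein. None of these 5 was identical in the mock list, but the last 2 places were taken in genome order from 6 PA+OA entries with 3 coding genes, of which 2 were identical.

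In the mock list the first was at 8:7960001-8040000, with USP17L8, USP17L3, FAM90A11, FAM90A24 and FAM90A12, members of repeated gene families of near-identical copies, where reads can be hard to place. Its overlap with the PA+OA entry 8:8000001-8080000, which holds the same FAM90A genes, shifts both edges by 1 bin. The other 4 were at 11:3640001-3680000 (ART5, ART1, CHRNA10 and the nucleoporin gene NUP98), 11:17320001-17400000 (NUCB2, NCR3LG1, and KCNJ11 and ABCC8, which encode the subunits of the ATP-sensitive potassium channel), 11:67320001-67400000 (POLD4, CLCF1, RAD9A and PPP1CA, the catalytic subunit of protein phosphatase 1) and 8:22520001-22600000 (PPP3CC, SORBS3, PDLIM2 and C8orf58). Each of these 4 had a single edge in the same bin in the PA+OA list, and the smallest PA+OA domain around it measured 200 to 320 kb.

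Genes of lipid metabolism, hepatocyte identity, chromatin folding and housekeeping were looked up in the short entries. None of 174 genes in 8 lists overlapped a short entry in either list. Taking a count of 0 to allow up to 3, the share could reach 1.72%. Of all 19974 protein-coding genes, 0.641% overlapped a short PA+OA entry and 0.741% a short mock entry. A count of 0 is near those shares and sets these genes apart from no others. The short entries overlapped 128 coding genes in the PA+OA list and 148 in the mock list, of which 57 were in both. The lists cover fatty acid and cholesterol synthesis, fatty acid oxidation, triglyceride storage, uptake and lipoproteins, hepatocyte transcription factors, hepatocyte secreted proteins, chromatin architecture and housekeeping genes. The nearest was the housekeeping gene VPS29, a retromer subunit, 11.1 kb from the identical entry of ARPC3. APOM, an apolipoprotein of HDL, lay 52.4 kb from the zero-length PA+OA position 6:31600000, and CEBPB, a liver transcription factor, 70.6 kb from the PA+OA entry 20:50080001-50120000, which holds UBE2V1 and PEDS1. ZNF143, which binds at many loop anchors, lay 71.5 kb from 11:9600000, zero-length in both lists. NR1H4, the bile acid receptor FXR, lay 75.6 kb from the zero-length mock position 12:100640000.

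Other kinds of gene were present too. Long noncoding RNA genes lay in 28 of 76 PA+OA and 36 of 82 mock entries of 40 or 80 kb, and pseudogenes in 26 and 29. Small nucleolar RNA genes lay in 3 PA+OA and 2 mock entries. The PA+OA entry with miR-1248 held 5 of them, SNORD2, SNORA63B, SNORA81, SNORA63 and SNORA4, which lie within EIF4A2. A transfer RNA gene, TRK-CTT1-1, lay in 1 mock entry and none in the PA+OA list. The share of all 40 and 80 kb windows that hold these kinds of gene was not counted. These numbers therefore describe the entries and do not set them apart from other places.

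The domains beside short entries were of similar size in both lists. The nearest domain above zero length on either side had a median of 560 kb in the PA+OA list (quartiles 320 and 1000 kb, 363 neighbours) and of 560 kb in the mock list (320 and 1120 kb, 429 neighbours). For entries above 80 kb the neighbours had a median of 640 kb in either list. For the shorter of both neighbours of a short entry the median was 400 kb in the PA+OA and 360 kb in the mock list, against 440 kb in each list over all entries. For the longer the median was 880 kb in the PA+OA and 920 kb in the mock list, against 1080 and 1120 kb over all entries. Neighbours longer than 3 Mb were 16 of the 363 neighbours of short entries in the PA+OA list and 22 of 429 in the mock list. Over all entries they were 387 of 4997 and 371 of 5306, so they were not more common beside short entries.

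The short entries between the longest neighbours were ranked by the summed length of both neighbouring domains. The zero-length PA+OA position 9:880000, in DMRT1, a transcription factor of the testis, lay between domains of 880 and 26440 kb, and the nearest mock edge was 1 bin away. The PA+OA entries 9:67160001-67200000 and 9:39280001-39360000 stood beside domains of 19760 and 11960 kb, and the second, with CNTNAP3 and SPATA31A1, lay inside a mock domain of 13160 kb. The zero-length PA+OA positions 1:86800000 and 15:99240000, in TTC23, stood beside domains of 8120 and 6480 kb. In the mock list the 5 highest sums belonged to the zero-length positions 9:41840000, 14:18400000, X:3840000 and 12:37120000, beside domains of 18920, 17960, 6840 and 4360 kb, and the CT47 entry. Of these 5 mock entries, X:3840000 and the CT47 entry were identical in the PA+OA list, and the other 3 lay at plain edges of PA+OA domains.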

How the data were processed

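The deposited file of each library is a domain list with chromosome, start and end in base pairs on hg38 and no other value, per the labels and the file headers. FastQC and HiC-Pro were used, per the submitters' processing notes. The sources used here do not give versions, caller, matrix normalization or contact number. A caller's minimal size or a shallow matrix can change which short entries are listed.

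Positions were rounded to whole multiples of 40 kb, and entries of at most 80 kb were taken. An entry was identical where 1 entry of the other list had the same start and end. Neighbours were the nearest entries above zero length. The 19974 protein-coding genes came from RefSeq GRCh38.p14, placed by overlap of their record, with 22132 listed starts of 15812 genes outside chromosome 8. Shares have Wilson 95% intervals. Zero-length rows listed 2 times count as 2 entries there, and as 1 where positions are counted. No test was made with 1 library per group. Tables were made with Python 3.11.15, pandas 2.3.3 and scipy 1.17.1, and the matching was tested on simulated lists.

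Named regions were, per list, the 5 entries of 40 or 80 kb with the most coding genes, the 3 longest runs and the 5 entries with the largest summed length of both neighbours, ties in genome order. A rule for zero-length entries inside listed genes named none. The members and gene lists were chosen with earlier results of these data known. Alternatives varied the length limit, rounding, chromosomes, matching tolerance, gene placement and neighbours.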

Additional observations from a re-analysis of the deposited data

How the results depend on the processing

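The number of short entries follows the limit. With limits of 0, 40, 120, 160 and 200 kb they made up 4.28, 5.98, 8.72, 11.3 and 14.7% of the PA+OA list and 5.08, 6.83, 9.33, 11.7 and 14.2% of the mock list, with 108 PA+OA and 136 mock entries at 0 kb, 285 PA+OA entries at 160 kb, and 371 PA+OA and 381 mock entries at 200 kb, where the difference was -10. Leaving out entries with no coding gene within 500 kb, a setting added after seeing the data, gave 7.09% in the mock list. Allowing 1, 2 or 3 bins at each edge raised the share found again to 46.7, 50.5 and 58.2% of PA+OA and 39.0, 43.1 and 48.6% of mock short entries, against 49.1 and 46.2% of all entries with 1 bin. Where both edges could be edges of any entry it was 47.3 and 41.3%. With such tolerance both edges of a short entry can match nearly the same place. The shares of all entries in these wider settings were not worked out beyond 1 bin, so the rise is not read as a trait of short entries.

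Gene content of the 40 and 80 kb entries, 75% in PA+OA and 78.0% in mock by overlap, was 53.9 and 48.8% by the gene's middle, 46.1 and 48.8% by the first base of its record, 52.6 and 50% by the last, and 84.2 and 87.8% with genes of all kinds. It was 86.5% in mock without entries far from coding genes. Median neighbours were 880 and 920 kb on the longer side and 400 and 360 kb on the shorter. Zero-length positions had an edge of the other list within 1, 2 or 3 bins in 67.3, 75 and 80.8% of PA+OA and 59.2, 68.5 and 73.8% of mock cases. All inner edges had one in 75.01, 77.8 and 81.2% of PA+OA and 71.3, 74.0 and 77.0% of mock cases. Within 3 bins the zero-length PA+OA positions were thus found again at about the rate of all inner edges. The other 212 recomputed values, among them those without rounding, on autosomes alone and with each chromosome left out, moved by less than their interval or by less than 1.5 times for counts. The difference in number stayed negative in all settings, but the share of the list was higher in PA+OA than in mock at 200 kb, and gene content was higher in PA+OA by the gene's middle and last base.

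No paired analysis was possible because each group has 1 library and the labels give no replicate numbers, and no replicate was left out for the same reason. Depth is unknown, and library, vehicle and treatment cannot be told apart.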
